A study of Mus musculus with 6 samples.

Results

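The 10 genes described here set how many mitochondria a cell makes, how these fuse and divide, and how damaged ones are removed. They are the biogenesis genes Ppargc1a, Ppargc1b, Nrf1 and Tfam, the fusion genes Opa1, Mfn1 and Mfn2, the fission genes Dnm1l and Fis1, and the mitophagy gene Pink1. They were taken by symbol from a table of 29543 mouse genes, in which each of the 10 had 1 row. All 10 lay above a mean of 1 FPKM (fragments scaled by gene length and library size) over the 6 libraries and were among the 10316 genes tested. Ppargc1b (1.30 FPKM) and Nrf1 (1.20 FPKM) lay closest to that limit, and each had 1 group below it.

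In mitochondrial biogenesis, coactivators of the Ppargc1 family dock onto nuclear transcription factors such as NRF1, GABPA and the oestrogen-related receptor ESRRA. These switch on nuclear genes for mitochondrial proteins, among them Tfam, whose product packages mitochondrial DNA and starts its transcription. The outer membrane is fused by the mitofusins and the inner membrane by OPA1, while the dynamin DNM1L is recruited to the outer membrane to divide the organelle. PINK1 is a kinase that builds up on depolarised mitochondria and marks them for autophagy. The liver is rich in mitochondria, and in fasting hepatocytes Ppargc1a is known as an inducible coactivator of gluconeogenesis and fatty acid oxidation.

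RNA was sequenced from livers of mice after hepatic ischemia and reperfusion following a laparotomy (IR injury, 3 libraries) and from livers of mice that had the laparotomy alone (Sham, 3 libraries). The strain, genotype, sex, age and the times of ischemia and reperfusion were not given in the sources used here. The labels call the libraries replicate biosamples and name no animals, and p-values therefore speak of the spread among these 6 libraries, possibly a technical one. Library totals rebuilt from the FPKM steps were 54042831 to 68922517 reads in IR injury and 53622230 to 71752584 reads in Sham. The lowest read number behind any of the 10 genes was 34, for Ppargc1b in IR injury library 3, and the highest was 10023, for Pink1 in Sham library 1.

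The libraries carried hepatocyte RNA in both groups, with Alb at 38203 ± 1343 FPKM in IR injury and 46544 ± 2615 FPKM in Sham (SD, n = 3 each). Of 9 hepatocyte markers tested, 2 rose (Fgb at 1.67 and Hnf4a at 0.26 on the log2 scale), 6 fell and 1 did not pass. Among all genes tested, 24.3% rose and 53.8% fell. After median-of-ratios scaling (described below) 2 of the 9 rose, 1 fell and 6 did not pass, where 38.2% of all genes rose and 38.1% fell. Of the 5 brown fat markers, Ucp1, which defines that tissue, averaged 0.0201 and 0.0122 FPKM in IR injury and Sham, and the 4 without Elovl3 summed to at most 0.208 FPKM in IR injury and at most 0.0635 FPKM in Sham. Elovl3, which liver also expresses, rose (2.26), at 6.53 to 9.02 FPKM in IR injury and 0.677 to 1.02 FPKM in Sham. It passed the filter on low values only through its level in IR injury. Among muscle markers Myh1 was listed at 0 in all 6 libraries, and the summed level of 6 muscle genes was at most 0.112 FPKM in IR injury and at most 0.0894 FPKM in Sham. Summed neutrophil markers, 11 genes, lay between 831 and 933 FPKM in IR injury and between 18.1 and 19.5 FPKM in Sham, and all 8 that passed the filter on low values rose. Most of that sum was Lcn2, an acute-phase gene that hepatocytes also express, at 657 to 739 FPKM in IR injury and 6.64 to 7.20 FPKM in Sham, and the other 10 summed to 152 to 194 FPKM in IR injury and 11.1 to 12.6 FPKM in Sham. Kupffer cell markers, 10 genes, summed to 195 to 246 FPKM in IR injury and 358 to 369 FPKM in Sham, and 8 fell. The 10 stellate cell markers summed to 25.8 to 37.8 FPKM in IR injury and 89.8 to 96.1 FPKM in Sham, and 8 of 9 tested fell. The 10 sinusoidal endothelial markers summed to 37.3 to 78.0 FPKM in IR injury and 58.0 to 65.2 FPKM in Sham, and 7 of 9 tested fell while 1 rose. The one that rose was Lyve1, at 22.4 to 48.6 FPKM in IR injury and 9.01 to 12.02 FPKM in Sham, and the other 9 summed to 14.8 to 29.3 FPKM in IR injury and 49.0 to 53.2 FPKM in Sham. These counts of markers also stand beside the 53.8% of all genes tested that fell and the 24.3% that rose. After median-of-ratios scaling 7 Kupffer cell, 8 stellate cell and 6 sinusoidal endothelial markers fell. Under that scaling 1 sinusoidal endothelial marker and 8 neutrophil markers rose. In whole tissue, fewer cells of a type and less RNA per cell cannot be told apart, and the part of these shifts in the results below was not tested.

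The windows upstream of the transcription start are shown for 1 gene that rose, Ppargc1a, and for 3 that fell and hold a match to a motif of a nuclear biogenesis factor, Tfam, Opa1 and Pink1. They are 250 bases each from RefSeq (GRCm38.p6), 5′ to 3′ on the gene's strand and ending at the base before the start: chr5:51567726-51567975 (minus strand), chr10:71238045-71238294 (minus), chr16:29579084-29579333 (plus) and chr4:138326297-138326546 (minus). Capitals mark matches on either strand to the NRF1 motif (GCGCA and GCGC with any 1 base between), the ETS core CCGGAAG that GABPA can bind, or the cyclic AMP response half-site TGACG. Each of these windows holds 1 match.
Ppargc1a: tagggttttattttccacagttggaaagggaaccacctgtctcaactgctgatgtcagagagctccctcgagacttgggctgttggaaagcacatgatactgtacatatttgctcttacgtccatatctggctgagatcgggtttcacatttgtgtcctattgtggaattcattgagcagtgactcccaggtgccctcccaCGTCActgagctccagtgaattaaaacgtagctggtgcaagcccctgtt
Tfam: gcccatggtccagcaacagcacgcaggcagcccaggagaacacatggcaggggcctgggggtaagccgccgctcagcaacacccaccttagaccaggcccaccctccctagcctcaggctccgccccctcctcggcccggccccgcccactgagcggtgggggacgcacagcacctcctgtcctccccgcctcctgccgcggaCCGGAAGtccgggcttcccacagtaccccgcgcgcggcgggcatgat
Opa1: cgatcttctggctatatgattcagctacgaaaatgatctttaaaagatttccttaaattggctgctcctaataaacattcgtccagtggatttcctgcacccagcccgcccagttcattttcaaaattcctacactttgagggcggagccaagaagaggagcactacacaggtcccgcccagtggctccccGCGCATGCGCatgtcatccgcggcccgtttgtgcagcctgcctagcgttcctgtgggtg
Pink1: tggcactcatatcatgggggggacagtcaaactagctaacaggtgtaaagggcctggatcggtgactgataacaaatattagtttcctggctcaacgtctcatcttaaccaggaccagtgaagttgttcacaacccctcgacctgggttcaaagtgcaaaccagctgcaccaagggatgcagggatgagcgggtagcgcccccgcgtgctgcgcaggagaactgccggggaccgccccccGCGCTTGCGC

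RefSeq held such windows for 9 of the 10 genes, 14 windows in all, since some genes have several starts. The NRF1 motif stood in the windows of 2 genes, Opa1 and Pink1, and in 3.74% of all 32851 promoter windows of the same length. The ETS core stood in those of 3 genes (Tfam, Mfn1 and Fis1) and in 6.91% of all windows. The half-site TGACG stood in those of 3 genes (Ppargc1a, Mfn1 and Mfn2) and in 17.8% of all windows, and AAGGTCA, bound by oestrogen-related receptors, in none of the 14 and in 4.08% of all. A count of genes and a share of windows are unlike measures, since a gene with several windows can hold a match in any of them. The matches are letters in these windows and show no binding.

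Of the 10 genes, 3 rose (Ppargc1a, Nrf1 and Dnm1l) and 7 fell after IR injury (limma on log2(FPKM + 1), Benjamini-Hochberg adjusted p under 0.05). Among all genes tested, 24.3% rose and 53.8% fell, so that calls in either direction were common (78.1%) and the counts of the 10 genes alone are no result about them. In all 10 genes the 3 IR injury libraries did not overlap the 3 Sham libraries, as in 80.6% of all genes tested. The median log2 fold change was -0.23 over all genes tested and -0.37 over the 10. After median-of-ratios scaling, which put the median of all genes at 0.0027, 38.2% of genes rose and 38.1% fell (76.3% in all). Under that scaling 3 of the 10 were called higher and 4 lower (Ppargc1b, Tfam, Opa1 and Mfn2), and Mfn1, Fis1 and Pink1 did not pass.

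**Figure D1:**
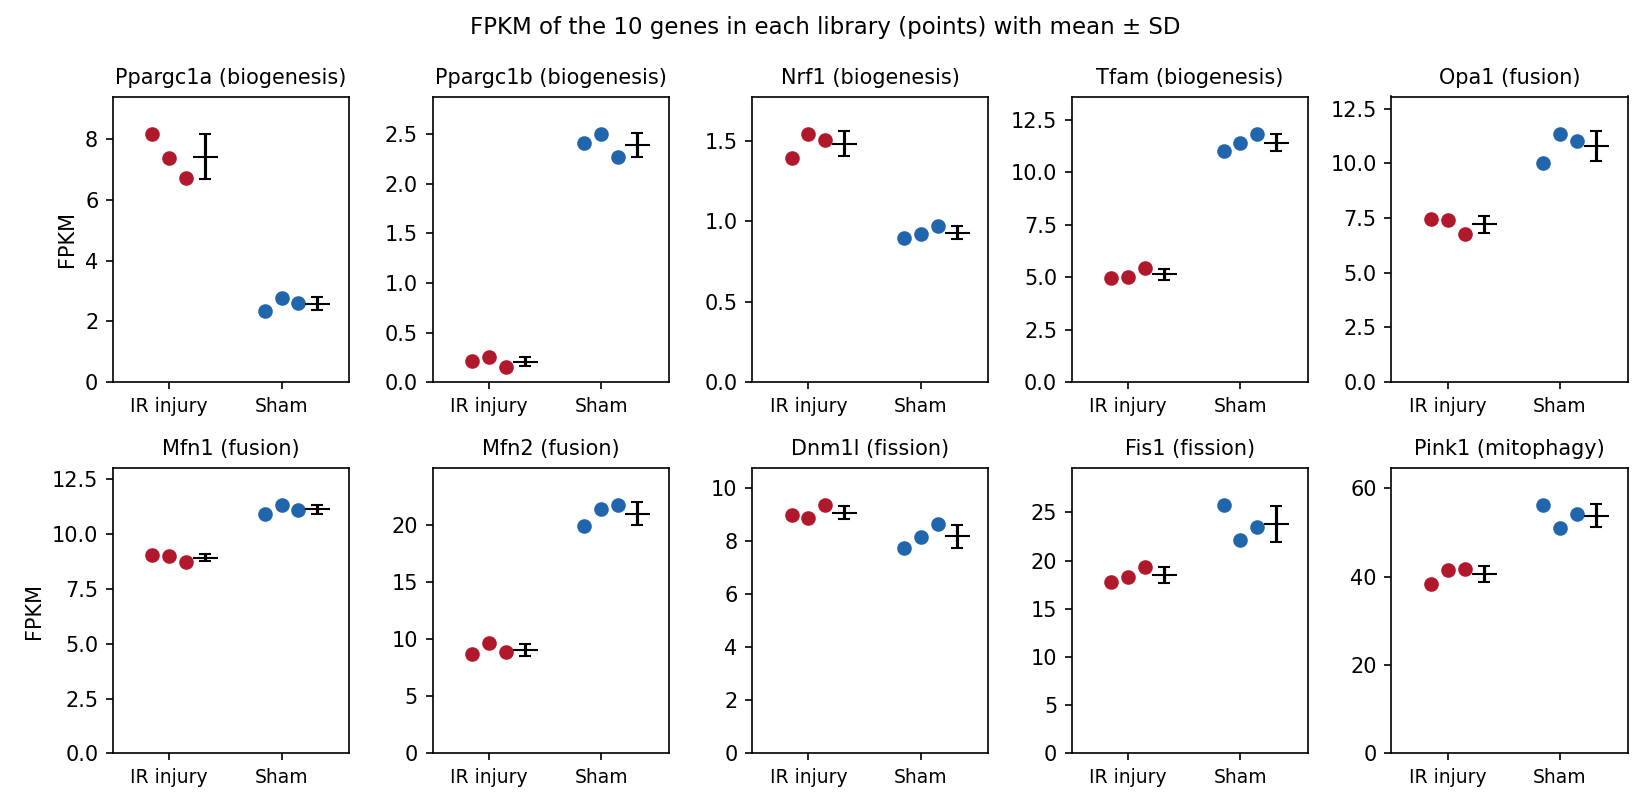
FPKM of each of the 10 genes in the 3 IR injury libraries (red) and the 3 Sham libraries (blue), with the mean and SD beside the points and every axis starting at 0. Ppargc1a, Nrf1 and Dnm1l lie higher in IR injury and the other genes lower, with the widest gap as a ratio in Ppargc1b (means of 0.206 and 2.39 FPKM in IR injury and Sham).

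The first question was how the regulators of biogenesis differed after IR injury. The 2 coactivator genes moved in opposite directions: Ppargc1a was 2.88-fold higher and Ppargc1b was 11.6-fold lower in mean FPKM. Nrf1 was 1.59-fold higher, while Tfam, which acts downstream, was 2.22-fold lower.

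Ppargc1a (ENSMUSG00000029167, mm10 chromosome 5, 51454250 to 51567726, minus strand, protein coding) encodes a coactivator induced by cold, fasting and exercise. It had 8.19, 7.39 and 6.71 FPKM in IR injury libraries 1, 2 and 3, against 2.36, 2.79 and 2.60 FPKM in Sham libraries 1, 2 and 3. Every IR injury library lay well above every Sham library. It rose by 1.23 on the log2 scale (SE 0.0776, adjusted p = 3.65e-06 from limma), above that of 94.6% of the genes tested.

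Ppargc1b (ENSMUSG00000033871, mm10 chromosome 18, 61298136 to 61400431, minus strand, protein coding) encodes the related coactivator that supports basal mitochondrial and lipogenic programmes. It had 0.210, 0.251 and 0.158 FPKM in the IR injury libraries, from 48, 69 and 34 reads, against 2.40, 2.50 and 2.26 FPKM in the Sham libraries, from 640, 716 and 484 reads. All IR injury libraries were far below the Sham libraries, which lay close together. On the log2 scale the change was -1.49 (SE 0.0604, adjusted p = 4.38e-07), and the added 1 FPKM weighs heavily at this level. With a pseudocount of 0.1 it was -3.03, and with limma voom on rebuilt reads -3.53.

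Nrf1 (ENSMUSG00000058440, mm10 chromosome 6, 30047988 to 30153458, plus strand, protein coding) encodes nuclear respiratory factor 1, a factor that binds promoters of respiratory chain genes. It had 1.39, 1.54 and 1.51 FPKM in the IR injury libraries, against 0.895, 0.920 and 0.972 FPKM in the Sham libraries. The groups were apart at a low level, with a log2 fold change of 0.36 (SE 0.0551, adjusted p = 0.000500) and of 0.68 with limma voom. Tfam (ENSMUSG00000003923, mm10 chromosome 10, 71225464 to 71238280, minus strand, protein coding), whose upstream window holds the ETS core printed above, had 4.98, 4.99 and 5.43 FPKM in the IR injury libraries, against 11.02, 11.4 and 11.8 FPKM in the Sham libraries. The groups were wide apart and narrow in themselves. Its change on the log2 scale was -1.02 (SE 0.0519, adjusted p = 1.25e-06), lower than that of all but 10.3% of the genes tested, and it kept its call under all 18 alternatives run.

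Around these 4 genes, a list of 32 genes of biogenesis, mitochondrial DNA upkeep and mitochondrial transcription was read, of which 26 further genes could be tested. Of those, 7 rose, 18 fell and 1 did not pass. After median-of-ratios scaling 8 rose and 12 fell, where 38.2% of all genes rose and 38.1% fell. The median log2 fold change of these 26 was -0.34, against -0.23 over all genes tested. The whole list had 9 rises and 20 falls among 30 genes tested, where 24.3% of all genes tested rose and 53.8% fell. Tfb1m and Polg2, like Ppargc1b and Nrf1, had 1 group below a mean of 1 FPKM.

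Coactivators were among the further genes that rose. Pprc1, another coactivator of the family, had means of 7.73 ± 0.146 FPKM in IR injury and 3.31 ± 0.163 FPKM in Sham (SD, n = 3 each), a log2 fold change of 1.02. Gabpb1, a partner of the ETS factor GABPA (0.79), the corepressor Nrip1 (0.78), the CREB coactivator Crtc2 (0.48), the coactivator Ncoa6 (0.36) and the deacetylase Sirt1 (0.24) also rose, as did the mitochondrial Mterf3, a repressor of mitochondrial transcription (0.16). These 7 kept their call under all 4 other scalings. Gabpa itself fell, with a log2 fold change of -0.46, as did Esrra (-1.03), the receptor with which the coactivators work, and Sirt3, the main mitochondrial deacetylase (-0.85).

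Genes of mitochondrial DNA upkeep and expression were, like Tfam, among those that fell. The helicase Twnk had means of 2.54 ± 0.202 FPKM in IR injury and 7.95 ± 0.171 FPKM in Sham (log2 fold change -1.34, adjusted p = 4.81e-07). The elongation factor Tefm had 2.25 ± 0.240 FPKM in IR injury and 7.20 ± 0.393 FPKM in Sham (-1.34). Polg2, the accessory subunit of the DNA polymerase (-0.92), Mterf4 (-0.85), the methyltransferase Tfb1m (-0.71), the RNA polymerase Polrmt (-0.60) and the single-strand binding gene Ssbp1 (-0.51) also fell, and these 7 genes kept their call under the 4 other scalings. The catalytic subunit Polg was closer, at 4.44 ± 0.0863 FPKM in IR injury and 5.17 ± 0.237 FPKM in Sham. It passed as lower (-0.18) but did not pass after median-of-ratios scaling, where its log2 fold change was 0.07. Tfb2m (-0.34) and Top1mt (-0.35) also fell and did not pass after median-of-ratios scaling, at -0.07 and -0.09. Mgme1 (-0.37) fell and did not pass under quantile normalization.

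The 13 protein-coding transcripts of the mitochondrial genome did not move in 1 direction. Their summed level was 59013, 61695 and 58663 FPKM in the IR injury libraries, against 60207, 62590 and 59271 FPKM in the Sham libraries, and the groups overlapped. Of the 13, 2 rose (mt-Cytb at 0.17 and mt-Nd6 at 0.18), 3 fell (mt-Nd2 at -0.40, mt-Nd4 at -0.13 and mt-Atp8 at -0.78) and 8 did not pass. The direction depended on the scaling. After median-of-ratios scaling 8 rose and none fell, where 38.2% of all genes rose and 38.1% fell, with mt-Nd4 turned round to 0.17. Under quantile normalization mt-Nd6 fell. The count of rises was 1 without IR injury library 2 or 3 or Sham library 1, and 0 without Sham library 3. Short and overlapping mitochondrial genes such as mt-Atp8 and mt-Nd4l, and genes with nuclear copies, are uncertain where reads could be shared.

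**Figure D2:**
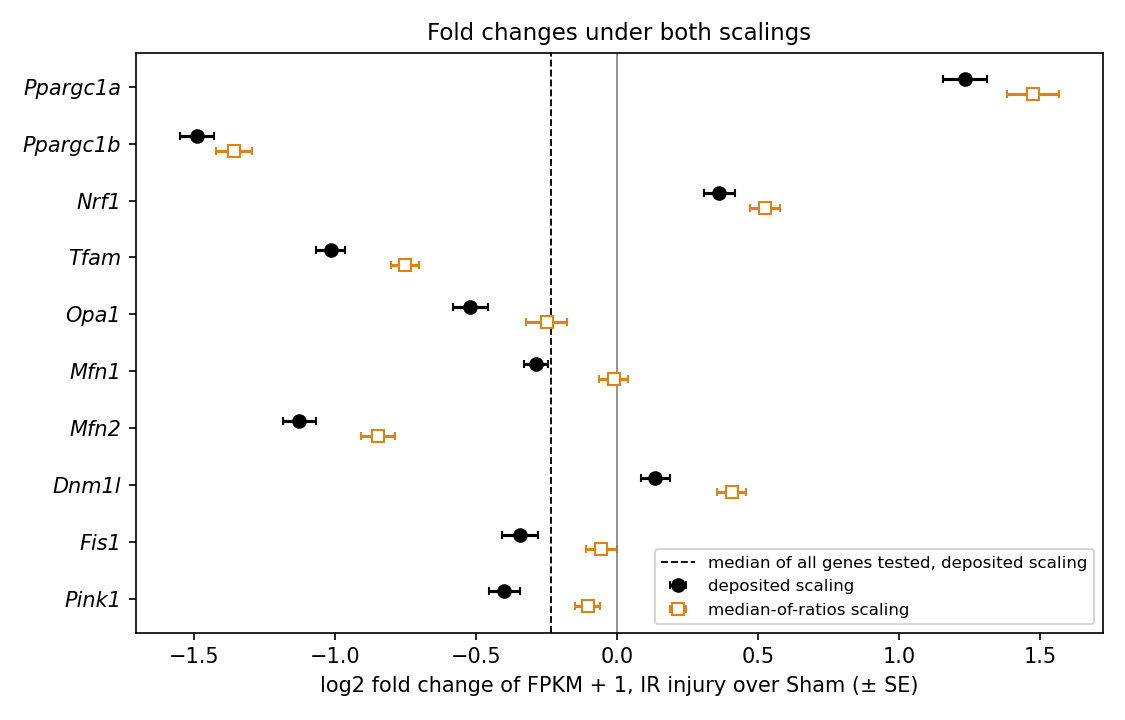
Log2 fold change of FPKM + 1, IR injury over Sham, for the 10 genes with limma's SE, under the deposited scaling (black points) and median-of-ratios scaling (open squares). The dashed line is the median of all genes tested under the deposited scaling, at -0.23. Under that scaling Mfn1 at -0.29 and Fis1 at -0.34 lie close to it, while Ppargc1a, Ppargc1b, Tfam and Mfn2 lie far from it. The median under median-of-ratios scaling, 0.0027, is not drawn. Ppargc1a (1.47), Ppargc1b (-1.36), Tfam (-0.75) and Mfn2 (-0.85) lie far from that median too.

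The next question was whether the genes of mitochondrial fusion differed. All 3 were lower after IR injury, to unequal extents: Mfn2 was 2.31-fold, Opa1 1.495-fold and Mfn1 1.245-fold lower in mean FPKM.

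Mfn2 (ENSMUSG00000029020, mm10 chromosome 4, 147873599 to 147904704, minus strand, protein coding) encodes the mitofusin that also tethers mitochondria to the endoplasmic reticulum. It had 8.67, 9.67 and 8.82 FPKM in the IR injury libraries, against 19.8, 21.3 and 21.7 FPKM in the Sham libraries. The gap between the groups was far wider than the spread within either. Its fold change on the log2 scale was -1.13 (SE 0.0580, adjusted p = 1.30e-06), and -0.85 after median-of-ratios scaling.

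Mfn1 (ENSMUSG00000027668, mm10 chromosome 3, 32529465 to 32579239, plus strand, protein coding), the mitofusin with the stronger tethering activity between mitochondria, had 9.03, 8.999 and 8.74 FPKM in the IR injury libraries, against 10.9, 11.3 and 11.1 FPKM in the Sham libraries. The groups were apart, but not as far as in Mfn2. Its fold change on the log2 scale was -0.29 (SE 0.0424, adjusted p = 0.000424), which 46.5% of the genes tested lay below. After median-of-ratios scaling it was -0.01 and did not pass (adjusted p = 0.826).

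Opa1 (ENSMUSG00000038084, mm10 chromosome 16, 29579334 to 29654884, plus strand, protein coding), the inner membrane dynamin whose upstream window holds the NRF1 motif printed above, had 7.46, 7.43 and 6.76 FPKM in the IR injury libraries, against 10.02, 11.3 and 11.01 FPKM in the Sham libraries. The log2 fold change was -0.52 (SE 0.0619, adjusted p = 0.000125). It was -0.25 after median-of-ratios scaling, where it still passed (adjusted p = 0.0149).

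A list of 20 genes of fusion and cristae also held genes that cut OPA1, shape the inner membrane folds or act on the outer membrane. Of its genes, 15 beyond those above could be tested. Of these 15, 13 fell, 1 rose and 1 did not pass, where 53.8% of all genes tested fell and 24.3% rose, and their median log2 fold change was -0.37, against -0.23 over all genes tested. After median-of-ratios scaling 7 of the 15 fell and 2 rose, where 38.1% of all genes fell and 38.2% rose. The peptidase Oma1, which cleaves OPA1 under stress, was at 3.00 ± 0.141 FPKM in IR injury and 5.53 ± 0.394 FPKM in Sham (-0.71). The prohibitins Phb (-0.69) and Phb2 (-0.57), the cristae organiser Immt (-0.68), its partner Apoo (-0.59) and the ubiquitin ligase Mul1 (-0.59) also fell, and these 6 kept their call under the 4 other scalings. The gene that rose was Marchf5, a ligase of the outer membrane, at 47.9 ± 1.27 FPKM in IR injury and 41.0 ± 1.36 FPKM in Sham (0.22). Micos10 did not pass, at 9.72 ± 0.519 FPKM in IR injury and 10.1 ± 0.998 FPKM in Sham, but rose after median-of-ratios scaling (0.22).

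The fission genes Dnm1l and Fis1 came next. They went opposite ways by small amounts, with Dnm1l 1.11-fold higher and Fis1 1.29-fold lower in mean FPKM. Dnm1l (ENSMUSG00000022789, mm10 chromosome 16, 16312230 to 16358959, minus strand, protein coding) encodes the dynamin that constricts mitochondria. It had 8.99, 8.86 and 9.36 FPKM in the IR injury libraries, against 7.75, 8.14 and 8.63 FPKM in the Sham libraries. The highest Sham library lay just under the lowest IR injury library. The log2 fold change was 0.14 (SE 0.0521, adjusted p = 0.0444), close to the threshold. It did not pass without IR injury library 1 (adjusted p = 0.0688), IR injury library 2 (0.0668), IR injury library 3 (0.125), Sham library 1 (0.136) or Sham library 2 (0.0843), and passed without Sham library 3 (0.0352). It did not pass with no filter (0.0585) or TPM scaling (0.105), and after median-of-ratios scaling the log2 fold change was 0.41 (adjusted p = 0.000207), over a range of adjusted p from 0.000207 to 0.136 in the 18 alternatives. An antisense gene, Gm49521, shares 243 exon bases with Dnm1l and was at 0 FPKM in IR injury and 0.00833 FPKM in Sham.

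Fis1 (ENSMUSG00000019054, mm10 chromosome 5, 136953275 to 136966234, plus strand, protein coding) encodes an outer membrane anchor that can recruit fission factors. It had 17.8, 18.3 and 19.4 FPKM in the IR injury libraries, against 25.8, 22.1 and 23.5 FPKM in the Sham libraries. The IR injury libraries lay together below a wider Sham group. The log2 fold change was -0.34 (SE 0.0648, adjusted p = 0.00161), and -0.06 after median-of-ratios scaling, where it did not pass (adjusted p = 0.370).

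Of 15 further fission genes tested, 3 rose, 11 fell and 1 did not pass, where 24.3% of all genes rose and 53.8% fell. After median-of-ratios scaling 4 of the 15 rose and 6 fell, where 38.2% of all genes rose and 38.1% fell. Their median log2 fold change was -0.26, near the -0.23 of all genes tested. The largest fall was in Mtfp1, an inner membrane protein whose loss blocks division in cultured human cells, at 2.90 ± 0.197 FPKM in IR injury and 10.97 ± 1.05 FPKM in Sham (-1.62, adjusted p = 7.52e-07). Mief2, a receptor for DNM1L, was at 1.77 ± 0.111 FPKM in IR injury and 6.12 ± 0.456 FPKM in Sham (-1.36), while the related receptor Mief1 was at 3.15 ± 0.209 FPKM in IR injury and 3.71 ± 0.169 FPKM in Sham (-0.18) and did not pass after median-of-ratios scaling. The anchoring protein Akap1 (-0.95), Slc25a46 (-0.60) and the calcineurin subunit Ppp3cb (-0.56) fell. The rises were those of Mtfr2, at 2.31 ± 0.352 FPKM in IR injury and 0.176 ± 0.0247 FPKM in Sham (1.49), which passed the filter on low values only through its level in IR injury, the formin Inf2 (0.41) and the SUMO protease Senp5 (0.15), which did not pass under TPM scaling.

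**Figure D3:**
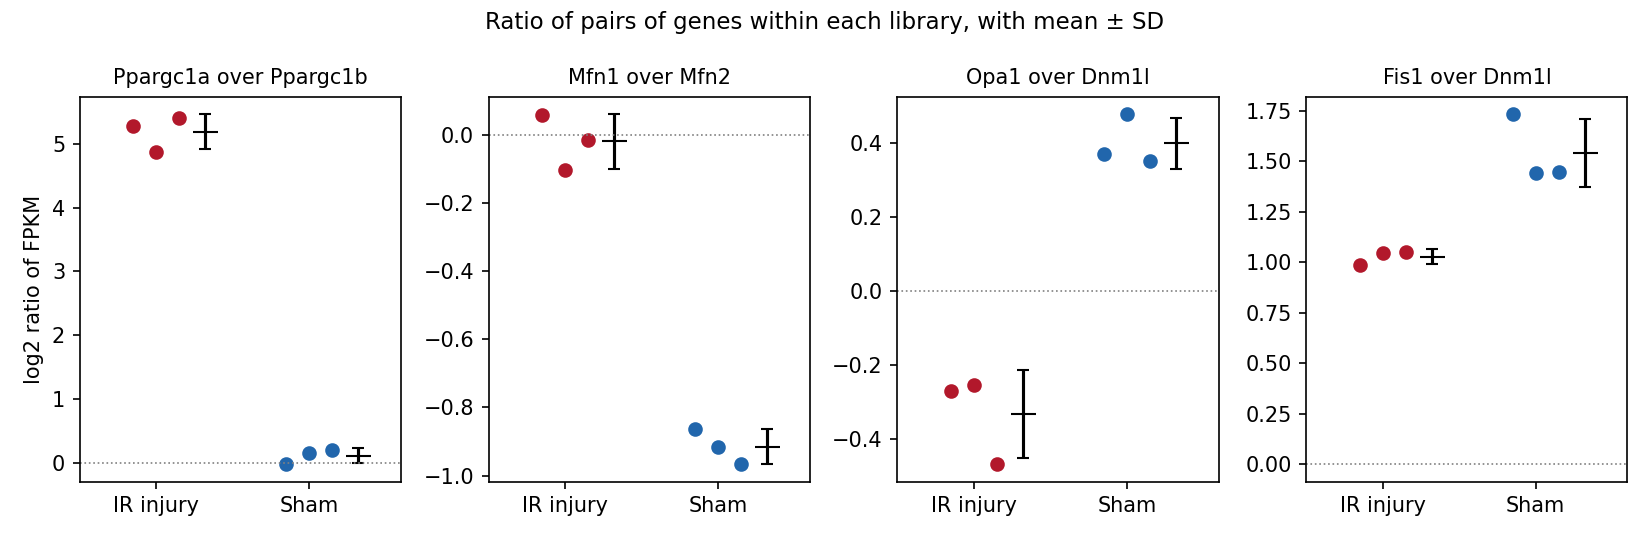
Log2 ratio of the FPKM of 2 genes within each IR injury library (red) and each Sham library (blue), with the mean and SD beside the points and 0 (equal levels) dotted. Mfn1 over Mfn2 sits near 0 in IR injury and near -0.91 in Sham, and Opa1 over Dnm1l is below 0 in all IR injury libraries and above 0 in all Sham libraries.

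Ratios of 2 genes in the same library do not depend on how libraries were scaled. The level per length of Ppargc1a was 39.1, 29.4 and 42.6 times that of Ppargc1b in the IR injury libraries, against 0.980, 1.11 and 1.149 times in the Sham libraries, a difference in mean log2 ratio of 5.08. Mfn1 was at 1.04, 0.931 and 0.990 times Mfn2 in the IR injury libraries, against 0.550, 0.530 and 0.512 times in the Sham libraries, a difference of 0.90. The ratio lay on both sides of 1 among the IR injury libraries, while Mfn2 was the higher mitofusin in every Sham library. With 1 FPKM added to both genes the difference for Ppargc1a over Ppargc1b was 2.72.

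Opa1 was at 0.830, 0.838 and 0.723 times Dnm1l in the IR injury libraries, against 1.29, 1.39 and 1.28 times in the Sham libraries, a difference in mean log2 ratio of -0.73. Fis1 was at 1.98, 2.07 and 2.07 times Dnm1l in the IR injury libraries, against 3.32, 2.71 and 2.72 times in the Sham libraries, a difference of -0.51. The groups did not overlap in any of the 4 ratios. By an exact two-sided permutation test each ratio had p = 0.1, which is the lowest value 3 libraries against 3 can give, and 0.1 after adjustment over the 4 ratios, so that none could pass 0.05.

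Pink1 (ENSMUSG00000028756, mm10 chromosome 4, 138313409 to 138326307, minus strand, protein coding), the kinase that marks damaged mitochondria, was the most abundant of the 10 genes in both groups. It was 1.33-fold lower after IR injury, at 38.4, 41.5 and 41.7 FPKM in the IR injury libraries, against 56.2, 51.0 and 54.3 FPKM in the Sham libraries. All IR injury libraries were below all Sham libraries. On the log2 scale it changed by -0.40 (SE 0.0551, adjusted p = 0.000284). After median-of-ratios scaling it was -0.10 and did not pass (adjusted p = 0.0606). The small RNA genes Mir7019 and Gm27646 share 69 and 110 exon bases with Pink1 on its strand.

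Among 26 further mitophagy genes tested, 6 rose, 15 fell and 5 did not pass, shares near the 24.3% and 53.8% of all genes tested, with a median log2 fold change of -0.24, close to the -0.23 of all genes tested. After median-of-ratios scaling there were 9 rises and 10 falls, where 38.2% of all genes rose and 38.1% fell. The adaptors did not all go one way. Sqstm1, the p62 adaptor that links ubiquitin to autophagosomes, rose most, with 449 ± 35.8 FPKM in IR injury and 110 ± 5.55 FPKM in Sham (log2 fold change 2.02, adjusted p = 1.75e-07), and the adaptor Tax1bp1 (0.27) rose. The adaptors Optn (-1.09) and Nbr1 (-0.73) fell, Optn to 12.9 ± 0.397 FPKM in IR injury, against 28.5 ± 0.694 FPKM in Sham.

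The kinases Ulk1 (0.63) and Tbk1 (0.56), which start autophagosomes and phosphorylate adaptors, rose, as did Tomm20 (0.24) of the outer membrane import pore. Map1lc3b, the LC3 gene, also rose (0.39), at 28.0 ± 2.79 FPKM in IR injury and 21.1 ± 0.741 FPKM in Sham. The related, more abundant Gabarapl1 fell (-0.52), at 133 ± 7.20 FPKM in IR injury and 191 ± 10.2 FPKM in Sham. The mitochondrial receptors Bnip3 (-0.44), Bnip3l (-0.67) and Fkbp8 (-0.44) and the matrix proteins Nipsnap1 (-1.18) and Nipsnap2 (-0.73) fell, as did Rhot2 (-0.93), which ties mitochondria to microtubules. All of these named rises and falls kept their call under the 4 other scalings, as did the fall of Atpif1 (-0.52). Usp30 (-0.32), Usp8 (-0.36), Parl (-0.26), Rhot1 (-0.17) and Fbxo7 (-0.22) also fell, but did not pass after median-of-ratios scaling. Bnip3 had means of 48.9 ± 1.39 FPKM in IR injury and 67.0 ± 1.04 FPKM in Sham. The receptor Fundc1 did not pass, at 3.20 ± 0.266 FPKM in IR injury and 3.28 ± 0.360 FPKM in Sham, nor did Bcl2l13, Ambra1, Usp15 and Tomm7. After median-of-ratios scaling Fundc1 (0.21), Ambra1 (0.33) and Usp15 (0.25) rose, while Bcl2l13 and Tomm7 again did not pass.

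**Figure D4:**
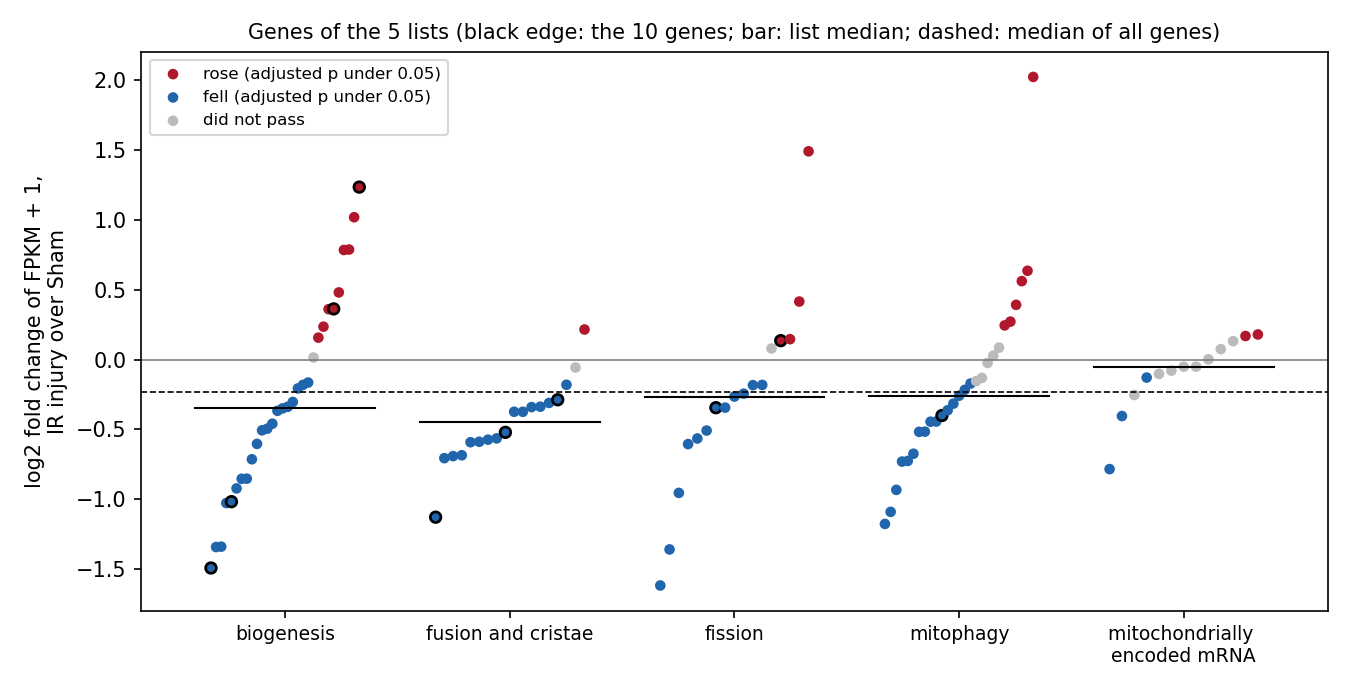
Log2 fold change of FPKM + 1, IR injury over Sham, of each tested gene of the 5 lists, sorted within a list and coloured by whether it rose, fell or did not pass. Black edges mark the 10 genes, bars the list medians and the dashed line the median of all genes at -0.23. The fusion and cristae list has the lowest median, at -0.45, or -0.37 without the 3 fusion genes described above. It has 16 falls and 1 rise, where 53.8% of all genes tested fell and 24.3% rose. After median-of-ratios scaling (not drawn) it has 9 falls and 2 rises, where 38.1% of all genes fell and 38.2% rose.

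The order of the 10 genes by level per length differed between the groups. In IR injury Pink1 (40.5 FPKM) and Fis1 (18.5 FPKM) led, followed by Dnm1l, Mfn2 and Mfn1 at 9.07, 9.05 and 8.92 FPKM, each overlapping its neighbour in this order. Ppargc1a (7.43 FPKM) and Opa1 (7.22 FPKM) also overlapped, and Tfam (5.13 FPKM), Nrf1 (1.48 FPKM) and Ppargc1b (0.206 FPKM) closed the order. In Sham Pink1 (53.8 FPKM) and Fis1 (23.8 FPKM) also led, and Mfn2 (20.96 FPKM) came next, just under the lowest Fis1 library. Tfam, Mfn1 and Opa1 followed at 11.4, 11.1 and 10.8 FPKM with overlapping neighbours, then Dnm1l (8.17 FPKM), Ppargc1a (2.58 FPKM) overlapping Ppargc1b (2.39 FPKM), and Nrf1 (0.929 FPKM).

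Genes with the most similar profile were found for 4 of the genes by Euclidean distance of centred log2(FPKM + 1) values over the 6 libraries, a description that is led by the group difference. Nearest to Ppargc1a were Ttll4 (distance 0.0961, log2 fold change 1.21), Baz1a (0.107, 1.20) and Sav1 (0.114, 1.28). Nearest to Opa1 were Cog5 (0.0423), Jarid2 (0.0625) and Pde3b (0.0674), with log2 fold changes of -0.49, -0.52 and -0.54. Nearest to Dnm1l were Phf20 (0.0525), Lin7c (0.0642) and Yy1 (0.0692), with log2 fold changes of 0.10, 0.12 and 0.11, of which the first 2 did not pass. Nearest to Pink1 were Cfl2 (0.0370), Gm15417 (0.0415) and Zranb1 (0.0446), with log2 fold changes of -0.42, -0.37 and -0.40.

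**Figure D5:**
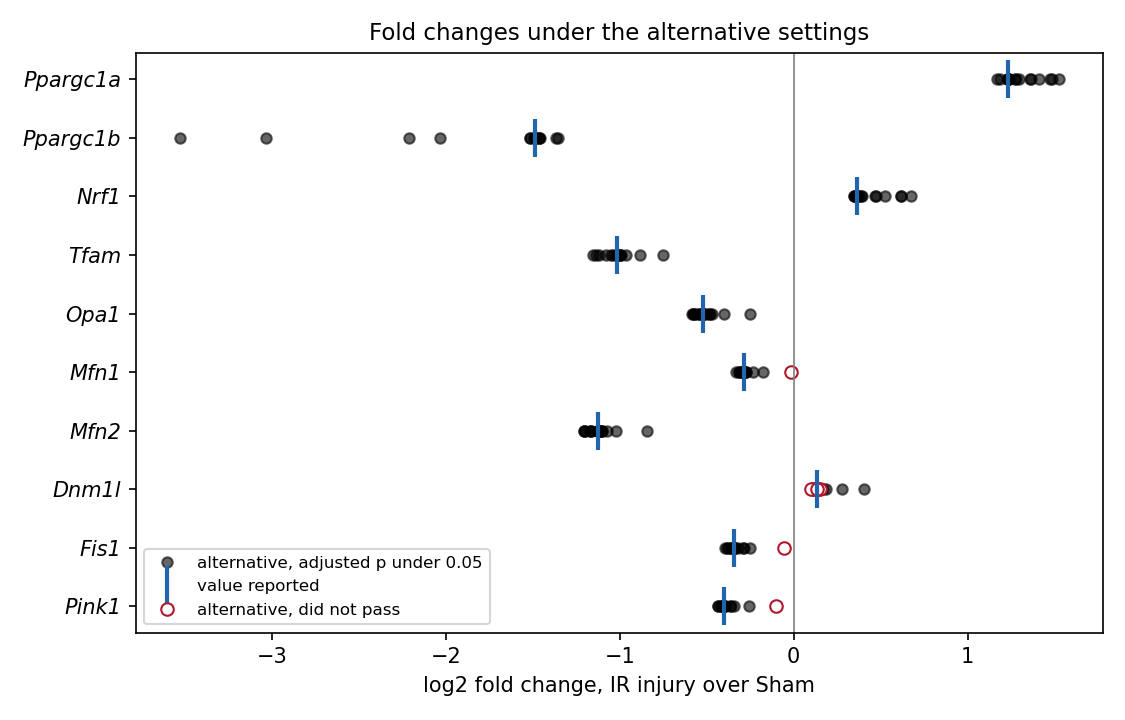
Log2 fold change, IR injury over Sham, of the 10 genes under each alternative setting (points) and as reported (blue bars), with open red points where the adjusted p did not pass. No gene changed sign, Dnm1l has open points under 7 alternatives, and Mfn1, Fis1 and Pink1 have 1 each.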

How the data were processed

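RNA from mouse liver was sequenced in 3 IR injury and 3 Sham libraries, grouped by title, with a SMARTER mRNA-Seq kit used on total RNA per the labels' protocols. The authors deposited 1 table of FPKM per gene and library. Per the submitters' processing notes the build was mm10, and the aligner, counter, annotation and use of strand were not given in the sources used here. Coordinates and exon lengths are those of GENCODE M21 on the same build, which held 28977 of the 29543 gene IDs.

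FPKM multiplied by exon length and by a fitted library total gave whole reads, within 0.05, for 98.3% of 27072 genes. Of values from 1 to 20 reads, 68.8% to 71.1% were even, so that reads are not all independent molecules. Rebuilt reads gave the depth and 1 alternative, since FPKM carries no counts.

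Genes with a mean of at least 1 FPKM entered a two-sided limma fit (version 3.58.1, R 4.3.3, moderated with an intensity trend) on log2(FPKM + 1). P-values were adjusted over 10316 genes by Benjamini-Hochberg, and 0.05 was the threshold. Fold changes are on that scale, which understates changes of low genes. Text values are mean ± SD over 3 libraries, and SE is limma's. The fit was also run on simulated reads in which few genes changed, evenly up and down. That run does not show how the fit behaves where most genes are called, as here. Ratios were compared by an exact permutation test (scipy 1.17.1).

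The 10 genes were taken by symbol, and up to 6 further genes per list by the size of their fold change past the threshold, with others where a count needed them. The genes and lists were chosen with earlier results of these data known. Of the lists, Gdap1 and Calcoco2 had no row by symbol, and Tf, Ckm and Myh4 of the markers likewise. A further entry of the mitophagy list is not reported here.

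Alternatives were pseudocounts, filters, scalings (median-of-ratios, quantile, TPM, and one that leaves out mitochondrially encoded genes and the top 50 by level), robust and untrended limma, limma voom on rebuilt reads, a block for the replicate number, and each library left out in turn.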

Additional observations from a re-analysis of the deposited data

How the results depend on the processing

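Over 18 alternatives no gene of the 10 changed sign, and the calls of Ppargc1a, Ppargc1b, Nrf1, Tfam, Opa1 and Mfn2 held under each that tested them. Ppargc1b and Nrf1 were not tested with a filter at a mean of 5 FPKM. After median-of-ratios scaling 4 of the 10 fell in place of 7, 3939 of all genes rose in place of 2505, and the falls were 9 in the fusion and cristae, 6 in the fission and 10 in the mitophagy list in place of 16, 12 and 16. That scaling also gave 2 rises in the fusion and cristae list in place of 1, and 8 rises and 0 falls of mitochondrially encoded mRNAs in place of 2 and 3. With quantile normalization these were 1 and 5, and with TPM scaling 1 rose. Mfn1 was at -0.18 and Pink1 at -0.26 with quantile normalization. With a filter at 5 FPKM, which leaves 4892 genes, 1359 rose and 2573 fell, with 3 and 9 in the biogenesis list and 2 and 7 in the fission list. With no filter 8843 genes fell, 2 fission genes rose in place of 4, as with TPM scaling, and 0 mitochondrially encoded mRNAs rose. Leaving out each library gave 2 to 3 rises in the fission list and 0 to 2 of mitochondrially encoded mRNAs. The cause was not tested, beyond the fewer genes that a filter leaves.

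Whether the replicate numbers of the titles pair the libraries could not be decided. Deviations of same-numbered libraries from their group means correlated at -0.0389, 0.0117 and -0.104 across genes, and not every library correlated best with its own number. The deviations of 3 libraries from their own mean depend on each other, so these correlations cannot show that a pairing was absent. With the replicate block, 3 of the 10 genes rose and 7 fell, as without it, and 2473 of all genes rose and 5491 fell. Depth limited Ppargc1b in IR injury, at 34 to 69 reads.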
